A study of Homo sapiens with 20 samples.

Results

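The genes described here are 49 genes of the DNA replication machinery, chosen by symbol: the MCM helicase and its relatives, the origin recognition complex, the licensing factors, CDC45 and GINS, the replicative polymerases, the clamp and its loader, the enzymes that join lagging-strand fragments, replication protein A and the enzymes that supply nucleotides. They are 49 of the 22221 genes tested and fall into 12 sub-complexes. All 49 had at least 1 probe above background in every array of at least 1 condition, so every member was measured, with 61 probes in all. The cells were HepaRG, a human hepatoma line whose progenitors can become hepatocyte-like and biliary-like cells, labelled by the submitters as hepatic stem cells. All cultures grew in William's E medium with serum, antibiotics, insulin and hydrocortisone, and the labels name no genetic change. RNA was taken at day 4 (D4) and day 15 (D15) without DMSO, at day 30 without DMSO (D30 − DMSO), at day 30 after 2% DMSO from day 15 (D30 + DMSO), and at day 34, 4 days after that DMSO had been removed (D34 ± DMSO). Each of the 5 conditions has 4 independent experiments with 1 one-color Agilent array each, 20 arrays in all. HepaRG is 1 line, so the arrays repeat the culture and not the donor.

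DNA replication starts at origins that are marked by the origin recognition complex. In G1 phase, CDC6 and CDT1 load the ring of MCM2 to MCM7 there, and geminin (GMNN) blocks CDT1 afterwards so that an origin fires no more than once in a cycle. In S phase, CDC45 and GINS join the ring and turn it into the active helicase, polymerase alpha with its primase lays down primers, polymerases epsilon and delta copy the strands, and replication factor C loads the sliding clamp PCNA. Many of the genes are transcribed in bursts at the entry into S phase under E2F factors, whereas resting hepatocytes hold them low and raise them when the liver regenerates.

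Promoter windows from RefSeq (GRCh38.p14, 250 bases before to 50 after the start) were given for 43 of the 49 genes. They were searched on both strands for the E2F-type letters TTTCCCGC, TTTGGCGC, TTTCGCGC and TTTGCCGC, with overlapping matches taken as 1. A match was held by 21 of the 43 genes (48.8%) and by 6.39% of the 11337 tested genes that have a window. Of single windows, 3.31% of all 35116 in the table held a match. Median GC content was 65.3% in the members' windows and 58.7% in all windows. Among the members, 17 of the 32 genes with a window that fell from D4 to D15 (53.1%) and 4 of the 11 that were not called (36.4%) held a match. The windows below run from 80 bases before to 20 after the start and are written 5′ to 3′ along the gene, with the match in capitals. They set genes that fell beside genes of the same complex or step that were not called: GINS2 beside GINS3, POLE2 beside POLE, CDT1 beside CDC6, with MCM2, RFC3 and DTL as other genes that fell and ORC3 as another that was not called.
MCM2 (chr3:127598331-127598430, plus strand): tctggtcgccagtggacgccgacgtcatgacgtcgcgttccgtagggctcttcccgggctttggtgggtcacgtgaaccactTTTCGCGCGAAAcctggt
CDT1 (chr16:88803709-88803808, plus strand): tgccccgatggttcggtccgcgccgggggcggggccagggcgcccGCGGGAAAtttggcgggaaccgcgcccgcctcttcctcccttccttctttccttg
CDC6 (chr17:40287799-40287898, plus strand): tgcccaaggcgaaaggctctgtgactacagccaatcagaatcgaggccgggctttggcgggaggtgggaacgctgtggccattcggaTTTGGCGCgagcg
ORC3 (chr6:87590055-87590154, plus strand): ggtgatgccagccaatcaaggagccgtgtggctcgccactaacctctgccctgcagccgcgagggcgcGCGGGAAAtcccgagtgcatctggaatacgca
GINS2 (chr16:85688935-85689034, minus strand): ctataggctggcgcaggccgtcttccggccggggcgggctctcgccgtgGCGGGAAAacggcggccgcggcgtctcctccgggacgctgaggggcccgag
GINS3 (chr16:58392391-58392490, plus strand): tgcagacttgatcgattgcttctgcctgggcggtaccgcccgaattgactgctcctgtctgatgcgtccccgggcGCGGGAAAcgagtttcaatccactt
POLE2 (chr14:49688195-49688294, minus strand): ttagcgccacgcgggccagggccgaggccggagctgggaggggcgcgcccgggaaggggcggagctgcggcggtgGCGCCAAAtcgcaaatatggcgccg
POLE (chr12:132687323-132687422, minus strand): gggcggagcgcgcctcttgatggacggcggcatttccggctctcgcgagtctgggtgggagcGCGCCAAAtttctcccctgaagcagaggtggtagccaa
RFC3 (chr13:33818069-33818168, plus strand): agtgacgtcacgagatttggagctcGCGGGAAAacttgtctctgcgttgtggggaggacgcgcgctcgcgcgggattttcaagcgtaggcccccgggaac
DTL (chr1:212035668-212035767, plus strand): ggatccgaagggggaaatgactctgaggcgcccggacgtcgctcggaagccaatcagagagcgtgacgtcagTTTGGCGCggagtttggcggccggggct
Thus the letters GCGGGAAA stand in the windows of GINS2, CDT1 and RFC3, which fell, and also in those of GINS3 and ORC3, which were not called. The letters GCGCCAAA are shared by POLE2 and POLE. Not called does not mean unchanged. GINS3 was at 60.9% of D4 at D15, with all D15 arrays below all D4 arrays, and missed the call by the 2-fold limit. The probes used for CDC6 and POLE were dim. A match is a string of letters and no evidence that a factor binds there. The CCAAT box (CCAAT) was found in 59.3% of the members' windows and 34.6% of all windows, and the CHR element (TTTGAA) in 1.85% and 15.2%.

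Values are processed signals in intensity units, scaled so that the 75th percentile of each array is 371.3, and are given in the order of replicates 1 to 4. A probe's signal also depends on its sequence, so levels are compared between conditions for 1 gene and never between genes. Changes are log2 differences with the standard error (SE) of limma, n = 4 arrays per condition, and a gene is said to have risen or fallen, or to be called, at a Benjamini-Hochberg adjusted p below 0.005 over all genes tested together with a change of more than 2-fold. On each array, between 61.1% and 74.2% of the spots were well above background, and pairs of replicates had r of 0.955 to 0.992 over all genes. Precision is limited by the small number of arrays, and p-values measure the spread between these arrays. All 10 hepatocyte markers (ALB to HNF4A) rose from D4 to D15, and the summed signal of the list was 81114 to 184600 at D4 and 742740 to 1140400 at D15. Of 5 leukocyte markers, 4 had a named probe, and their summed signal was 1670 to 2423 at D4 and 3258 to 3952 at D15, with 1 of the 4 called higher. Of 6 mesenchymal markers, 4 were tested and 2 fell from D4 to D15, and their sum was 9884 to 19016 at D4 and 3877 to 7280 at D15. Sums of the 7 biliary and 4 endothelial markers overlapped between D4 and D15. No marker list was at 0 in any condition, and the part of these lists in the results on replication genes was not tested. The arrays sit on 4 slides, 1 of which was scanned in a session of its own.

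Replication genes were high at D4, low at D15 and at both D30 conditions, and high again at D34 ± DMSO. From D4 to D15, 36 of the 49 genes fell and 0 rose, where 3.82% of all genes tested fell and 5.69% rose. The methods' t-test called 19 of the 49 in this comparison, beside 1055 of all 22221 genes. The median log2 change of the 49 was -1.50, beside 0.02 for all genes, and 41 of the 49 had all 4 D15 arrays below all 4 D4 arrays, beside 12.1% of all genes. From D15 to D30 − DMSO, 0 of the 49 were called (0.0135% of all genes), with 1 gene at an unadjusted p below 0.05 in limma, beside 654 of all 22221 genes. The methods' t-test called 0 of the 49 and 0 of all genes. At D30 + DMSO, 2 of the 49, CDT1 and POLE2, were called lower than at D30 − DMSO, a share near the 4.14% of all genes called lower. The methods' t-test called 0 of the 49 here, beside 532 of all 22221 genes. Leaving out 1 array gave 0 to 1 called. After DMSO removal, 32 of the 49 rose and 0 fell (D34 ± DMSO against D30 + DMSO, 5.07% of all genes higher and 1.98% lower), with a median change of 1.51 beside -0.04 for all genes. There the methods' t-test called 17 of the 49 and 460 of all 22221 genes. Removal and the 4 further days of culture cannot be told apart in this comparison, which below is called removal for short. At D34 ± DMSO, 31 were higher than at D30 − DMSO (1.31% of all genes higher), of which the methods' t-test called 0. That test called 12 of all 22221 genes in this comparison. In limma, 0 of the 49 differed from D4 by the calling rule (8.53% of all genes called). In these bulk RNA samples, fewer cells that express a gene and less RNA per cell cannot be told apart.

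Expressed as a percent of D4, the median over the 49 genes was 35.3% at D15, 33.5% at D30 − DMSO, 27.5% at D30 + DMSO and 82.9% at D34 ± DMSO. The medians of single arrays ran from 92.0% to 116% at D4, from 27.2% to 43.9% at D15, from 28.7% to 45.1% at D30 − DMSO, from 23.2% to 31.1% at D30 + DMSO and from 68.1% to 97.0% at D34 ± DMSO. Replicate 1 was the lowest array of each condition, and the slide with a session of its own held the highest array of D4, D15, D30 − DMSO and D30 + DMSO. Without D15 replicate 1, 34 genes were called lower at D15. Within slides, the median change from D4 to D15 was -1.83, -1.41 and -1.48, the first 2 from slides with 1 array of each condition. That from D30 + DMSO to D34 ± DMSO was 1.50 and 1.61. The called genes kept their direction in each slide that held both conditions. They were called on these same arrays, so the split by slide is a description and no separate support. D4 was the highest condition for 36 genes, D34 ± DMSO for 12 and D30 + DMSO for 1 (ORC4). D30 + DMSO was the lowest condition for 34 genes.

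**Figure D1:**
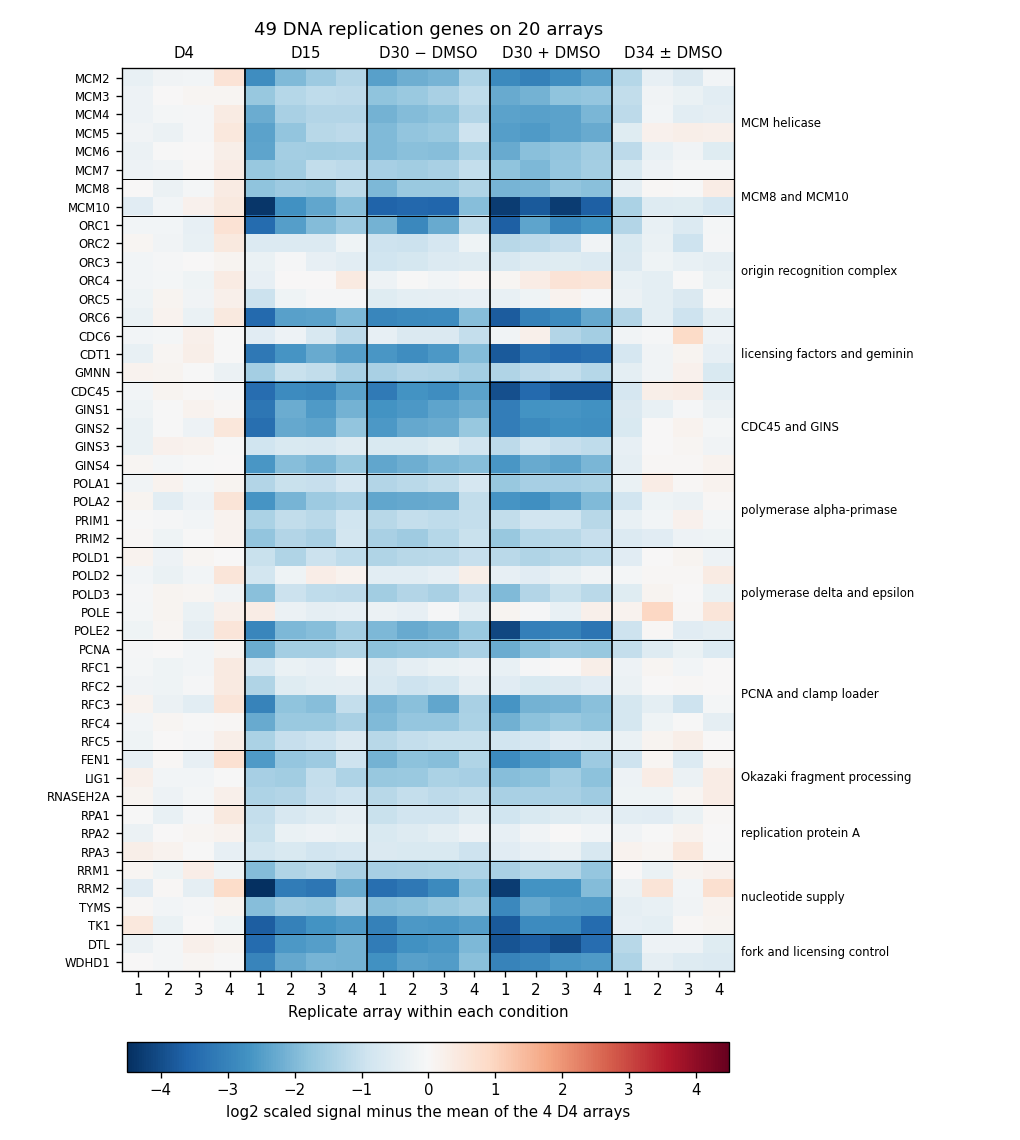
Heat map of the 49 genes (rows, by sub-complex) on the 20 arrays (columns, 4 per condition), colored by the log2 scaled signal minus the mean of the 4 D4 arrays. The D15 and D30 blocks are blue for most rows and the D34 ± DMSO block is close to the D4 block, while rows such as ORC4, POLE and RFC1 stay pale throughout.

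**Figure D2:**
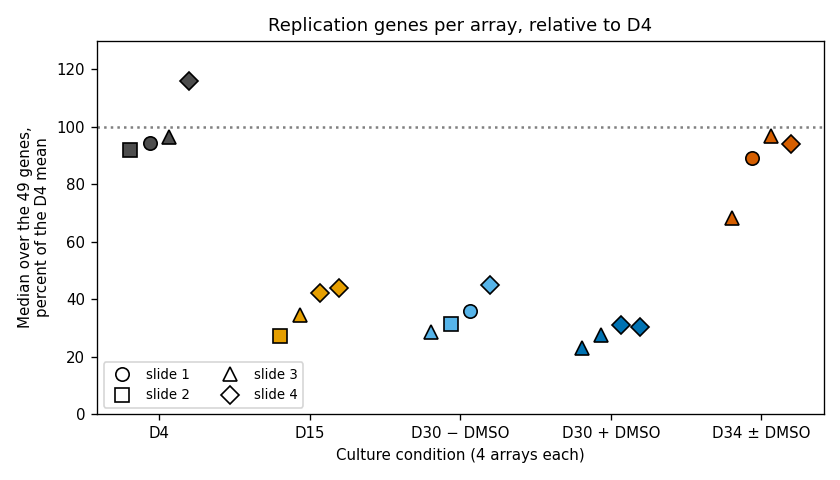
Each point is 1 array and gives the median over the 49 genes of the signal as a percent of the gene's D4 mean, by condition, with the slide as the symbol. The D15 and both D30 conditions lie between 23.2% and 45.1%, and the D34 ± DMSO arrays between 68.1% and 97.0%.

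All 6 subunits of the MCM2 to MCM7 ring fell from D4 to D15, to a median of 32.6% of D4 (range 26.0% to 40.0%), and all 6 rose on DMSO removal, to 69.5%. MCM7 gave signals of 14039, 14701, 17053 and 20845 at D4, 5090.3, 5592, 7698 and 7229.5 at D15 and 5773, 5519, 5934 and 7823 at D30 − DMSO. It was 4696, 4069, 4872 and 5735 at D30 + DMSO and 10263, 14114, 15568 and 15380 at D34 ± DMSO. All 4 D4 arrays lay above every D15 and D30 array, and the D34 ± DMSO arrays reached into the D4 range. The D4 to D15 change of MCM7 was -1.38 ± 0.18 (SE, adjusted p = 1.32e-05), and that on removal 1.51 ± 0.18 (SE, adjusted p = 7.82e-06). MCM7 has a second probe, for which the fall was -0.95 and was not called by the fold limit, while its rise of 1.19 was called. MCM2 had the largest fall of the ring. Its signals were 849.6, 954, 999.8 and 1663 at D4, 155, 271, 344 and 428 at D15 and 196, 234, 255 and 412 at D30 − DMSO. It was 149.6, 132, 155 and 197 at D30 + DMSO and 441, 831, 689 and 991 at D34 ± DMSO. Replicate 4 was the highest array in each of the 5 conditions. The changes of MCM2 were -1.94 ± 0.31 (SE, adjusted p = 0.000119) to D15 and 2.17 ± 0.31 (SE, adjusted p = 4.97e-05) on removal. MCM3 had the smallest fall, with signals of 3990, 4708, 4977 and 4946 at D4, 1432, 1909, 2103 and 2062 at D15 and 1329, 1475, 1699 and 2091 at D30 − DMSO. It was 967, 1058, 1314 and 1393 at D30 + DMSO and 2153, 4136, 3786 and 3341 at D34 ± DMSO. D34 ± DMSO reached from 2153 to 4136, with 1 array above the lowest D4 array. MCM3 changed by -1.32 ± 0.20 (SE, adjusted p = 6.50e-05) and 1.48 ± 0.20 (SE, adjusted p = 2.71e-05). The rises of MCM4, MCM5 and MCM6 on removal were 1.79, 2.47 and 1.32.

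MCM8, a relative of the ring with a part in homologous recombination, and MCM10, which helps to activate the assembled helicase, followed the ring. MCM8 signals were 377, 313, 352 and 481 at D4, 106, 122, 115 and 161 at D15 and 93.6, 118, 117 and 147 at D30 − DMSO. It was 87.1, 91, 109 and 102 at D30 + DMSO and 281, 393, 374 and 470.2 at D34 ± DMSO. The D34 ± DMSO and D4 arrays of MCM8 spanned much the same range, and the changes were -1.60 ± 0.18 (SE, adjusted p = 2.57e-06) and 1.95 ± 0.18 (SE, adjusted p = 4.29e-07). MCM10 signals were 54, 71.8, 89.6 and 105 at D4, 3.72, 11.7, 15.4 and 20.4 at D15 and 6.36, 6.73, 6.60 and 20.4 at D30 − DMSO. It was 3.99, 5.61, 4.03 and 6.04 at D30 + DMSO and 29.3, 51.5, 52.8 and 46 at D34 ± DMSO. MCM10 was well above background on all 4 arrays of D4 and of D34 ± DMSO, on 3 of D15, on 1 of D30 − DMSO and on 0 of D30 + DMSO. It fell by 2.84 ± 0.44 (SE, adjusted p = 7.73e-05) on the log2 scale to D15. Since no D30 + DMSO array measured it above background, its rise on removal is given as a bound, at least 3.95-fold (adjusted p = 3.30e-05).

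Calls differed between the subunits of the origin recognition complex, and the differences between subunits were not tested. ORC1 and ORC6 fell from D4 to D15 and rose on removal, whereas ORC2, ORC3, ORC4 and ORC5 were not called in either comparison. ORC6 gave signals of 166, 227, 168 and 280.3 at D4, 18.1, 38, 38.2 and 50.8 at D15 and 26.6, 28.5, 28.9 and 53.9 at D30 − DMSO. It was 15.3, 24.8, 27.9 and 41.2 at D30 + DMSO and 81.5, 153, 108 and 149.9 at D34 ± DMSO. Every D15 and D30 array of ORC6 was below every D4 and D34 ± DMSO array. ORC6 changed by -2.59 ± 0.34 (SE, adjusted p = 1.12e-05) and by 2.21 ± 0.34 (SE, adjusted p = 9.45e-05). ORC1 changed by -2.38 ± 0.41 (SE, adjusted p = 0.000243) and 2.34 ± 0.41 (SE, adjusted p = 0.000387), at low signals that were above background on 1 of the 4 D30 + DMSO arrays. ORC4 signals were 709, 730.2, 668 and 1001 at D4, 599, 782, 771 and 1009 at D15 and 661, 750.0, 707 and 792 at D30 − DMSO. It was 808, 974, 1162 and 1112 at D30 + DMSO and 604, 568, 756 and 619 at D34 ± DMSO. D4 and D15 overlapped for ORC4, and its mean was highest at D30 + DMSO. The log2 differences of ORC4 were 0.02 ± 0.17 (SE, adjusted p = 0.963) from D4 to D15 and -0.67 ± 0.17 (SE, adjusted p = 0.00789) on removal, the second under 2-fold and of the opposite sign to the rise of ORC1 and ORC6. A second ORC4 probe gave 0.09 ± 0.19 (SE, limma adjusted p = 0.831) with DMSO addition and -0.52 ± 0.19 (SE, limma adjusted p = 0.0574) on removal. For ORC2, ORC3 and ORC5 the differences at D15 were -0.52, -0.31 and -0.32.

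Of the licensing factors, CDT1 fell to 15.8% of D4 at D15 and had the second largest fitted rise on removal. CDT1 signals were 890.3, 1199.6, 1351 and 1105 at D4, 119.7, 179, 232 and 200.3 at D15 and 181, 163, 186 and 288 at D30 − DMSO. It was 82.4, 110.5, 100.5 and 108 at D30 + DMSO and 661, 1014, 1225 and 861 at D34 ± DMSO. Each condition after D4 was lower than D4 with no overlap except D34 ± DMSO, and the D30 + DMSO arrays lay below those of D30 − DMSO. CDT1 changed by -2.66 ± 0.23 (SE, adjusted p = 6.64e-08) to D15 and by 3.20 ± 0.23 (SE, adjusted p = 2.53e-08) on removal. GMNN, the inhibitor of CDT1, fell by 1.26 on the log2 scale to D15 (adjusted p = 1.63e-05), and its difference on removal was 0.95 ± 0.17 (SE, adjusted p = 0.000449), just under 2-fold. CDC6, which works beside CDT1, was dim and scattered. CDC6 signals were 32, 32.4, 40.8 and 33.9 at D4, 24.5, 29.5, 20.9 and 15.4 at D15 and 27, 22.3, 21.9 and 16.4 at D30 − DMSO. It was 30.8, 40.4, 14 and 12 at D30 + DMSO and 31.2, 33.4, 63.1 and 29.2 at D34 ± DMSO. The CDC6 arrays of D30 + DMSO spread from 12.0 to 40.4, with 2 of them above background, and its differences of -0.66 ± 0.34 (SE, adjusted p = 0.19) at D15 and 0.80 ± 0.34 (SE, adjusted p = 0.104) on removal were not called.

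CDC45 and GINS, the partners that activate the MCM ring, held some of the widest swings, with GINS3 as the exception. CDC45 signals were 1906, 2235, 2161 and 2002 at D4, 193, 295, 281 and 386 at D15 and 229, 324, 299.8 and 387 at D30 − DMSO. It was 134, 182, 152 and 150.4 at D30 + DMSO and 1233, 2476, 2604 and 1557 at D34 ± DMSO. At D30 + DMSO, CDC45 was lower than in any array of the other 4 conditions, and at D34 ± DMSO 2 arrays were above all D4 arrays. CDC45 changed by -2.89 ± 0.24 (SE, adjusted p = 3.62e-08) to D15 and by 3.61 ± 0.24 (SE, adjusted p = 9.74e-09) on removal, the largest fitted rise of the 49 genes, 12.2-fold. GINS1, GINS2 and GINS4 fell by 2.54, 2.45 and 2.08 on the log2 scale and rose by 2.47, 2.73 and 2.29. GINS3 gave signals of 963, 1358, 1339 and 1171 at D4, 643, 742, 729.9 and 809 at D15 and 741, 738, 824 and 661 at D30 − DMSO. It was 528, 646, 586 and 544 at D30 + DMSO and 930.0, 1202, 1284 and 1060.1 at D34 ± DMSO. Its D15 arrays lay below all D4 arrays, but at 60.9% of D4 the difference of -0.72 ± 0.14 (SE, adjusted p = 0.000724) stayed under 2-fold, as did the 0.95 ± 0.14 (SE, adjusted p = 5.57e-05) on removal. Thus 3 of the 4 GINS subunits were called in both comparisons, and the fourth had differences of the same sign under 2-fold.

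**Figure D3:**
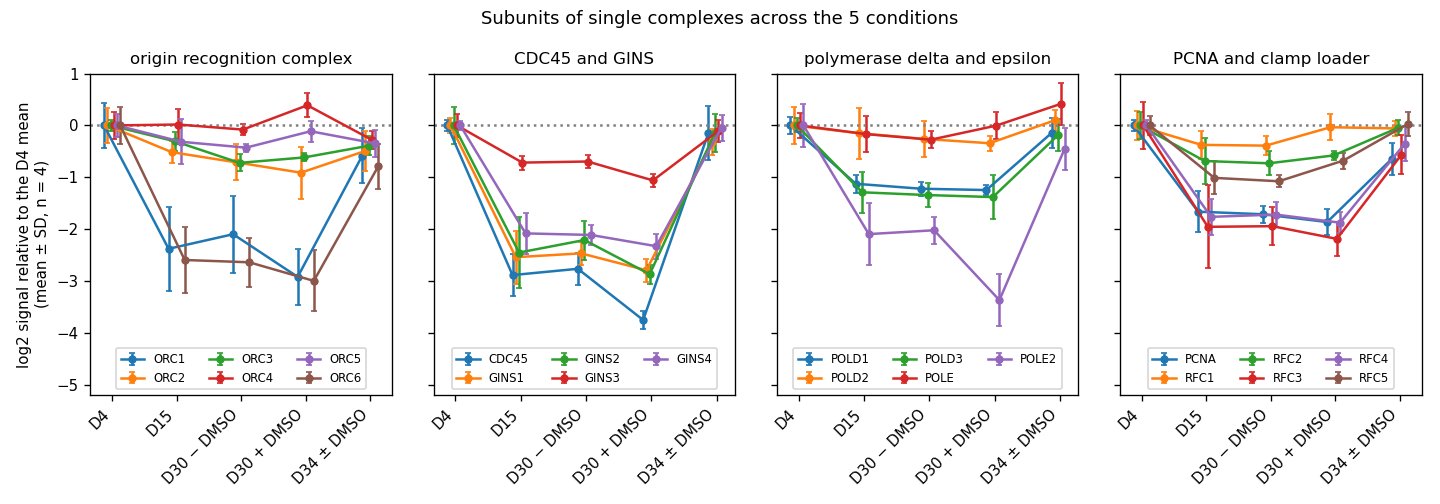
Mean ± SD (n = 4 arrays) of the log2 signal relative to the D4 mean, for each subunit of 4 complexes across the 5 conditions. ORC1 and ORC6, CDC45 and GINS1, GINS2 and GINS4, POLE2, and PCNA, RFC3 and RFC4 have means below -1 at D15 and return at D34 ± DMSO, as do POLD1 and POLD3, while the means of ORC2 to ORC5, POLD2, POLE, RFC1 and RFC2 stay within 1 log2 unit of D4.

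All 4 genes of polymerase alpha and primase fell from D4 to D15. POLA2, the accessory subunit, moved most. POLA2 signals were 247, 167, 195 and 344 at D4, 36.8, 53.8, 73.8 and 81.5 at D15 and 45.8, 45.9, 48.1 and 106 at D30 − DMSO. It was 36.2, 33.9, 40.8 and 58.6 at D30 + DMSO and 127, 199, 193 and 239.9 at D34 ± DMSO. D30 − DMSO replicate 4, at 106, stood above the other 3 arrays of its condition, at 45.8 to 48.1. POLA2 changed by -1.96 ± 0.31 (SE, adjusted p = 0.000103) and 2.16 ± 0.31 (SE, adjusted p = 5.19e-05). POLA1, the catalytic subunit, fell least. POLA1 signals were 458, 567, 477 and 554 at D4, 206, 258, 247 and 299.6 at D15 and 207, 220.0, 237 and 304 at D30 − DMSO. It was 158, 182, 184 and 191 at D30 + DMSO and 415, 644, 537 and 572 at D34 ± DMSO. The D34 ± DMSO arrays of POLA1 covered the whole D4 range. POLA1 changed by -1.03 ± 0.16 (SE, adjusted p = 6.93e-05) to D15 and by 1.58 ± 0.16 (SE, adjusted p = 8.36e-07) on removal. Its fall was not called with normexp, or without D4 replicate 2, D4 replicate 4 or D15 replicate 1. The primase subunits PRIM1 and PRIM2 fell by 1.16 and 1.34 on the log2 scale, and their differences on removal, 0.93 and 0.95, were under 2-fold.

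Among the leading and lagging strand polymerases, POLE2, POLD1 and POLD3 fell from D4 to D15, and POLE and POLD2 were not called. POLE2, the second subunit of polymerase epsilon, gave signals of 116, 141, 101 and 193 at D4, 17.5, 33.1, 35.8 and 46.2 at D15 and 32.7, 27.6, 30.8 and 42.5 at D30 − DMSO. It was 7.74, 15.7, 16.7 and 13.8 at D30 + DMSO and 69.8, 139, 94.8 and 101 at D34 ± DMSO. POLE2 was above background on 1 of the 4 D30 + DMSO arrays and on all D4 and D34 ± DMSO arrays. It changed by -2.10 ± 0.30 (SE, adjusted p = 3.43e-05) to D15 and by 2.92 ± 0.30 (SE, adjusted p = 1.20e-06) on removal. POLE, the catalytic subunit, was not called, at -0.17 ± 0.21 (SE, adjusted p = 0.664) and 0.42 ± 0.21 (SE, adjusted p = 0.173), with signals between 32.4 and 83.3 over the 20 arrays. A second POLE probe, above background on 1 of 4 D4 arrays, 0 of 4 D15 and D30 + DMSO arrays and 4 of 4 D34 ± DMSO arrays, gave -1.01 ± 0.68 (SE, limma adjusted p = 0.346) and 1.26 ± 0.68 (SE, limma adjusted p = 0.225). The difference between POLE and POLE2 was not tested. For polymerase delta, POLD1 (catalytic) and POLD3 fell by 1.12 and 1.29 on the log2 scale and rose by 1.10 and 1.20. POLD2 signals were 1288, 1154, 1285 and 2024 at D4, 796, 1214, 1712 and 1546 at D15 and 1018, 1017, 1074 and 1690.1 at D30 − DMSO. It was 1075, 996, 1099 and 1268 at D30 + DMSO and 1305, 1468, 1453 and 1830.4 at D34 ± DMSO. The D4 and D15 arrays of POLD2 overlapped, all D34 ± DMSO arrays lay above all D30 + DMSO arrays, and its difference at D15 was the smallest of these 5 genes, -0.15 ± 0.23 (SE, adjusted p = 0.746), and not called.

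Within PCNA and the clamp loader, some genes were called and others were not, and differences between the subunits were not tested. PCNA fell to 31.6% of D4, a change of -1.66 ± 0.19 (SE, adjusted p = 2.35e-06), and rose by 1.22 on removal (adjusted p = 0.000116). RFC3 gave signals of 226, 170.2, 145 and 298 at D4, 24.9, 57.8, 53.8 and 95.2 at D15 and 47.8, 54.2, 40 and 73.5 at D30 − DMSO. It was 32.2, 45.8, 47.3 and 55.5 at D30 + DMSO and 116, 149.6, 106 and 189 at D34 ± DMSO. Every D15, D30 − DMSO and D30 + DMSO array of RFC3 was below every D4 array. RFC3 changed by -1.95 ± 0.33 (SE, adjusted p = 0.000191) and 1.62 ± 0.33 (SE, adjusted p = 0.00145), and its second probe fell by 2.06 on the log2 scale. RFC4 and RFC5 fell by 1.76 and 1.01 on the log2 scale, and RFC4 rose on removal by 1.52. The fall of RFC5 was not called with normexp, in the fit of 8 arrays, by the methods' t-test, or without D4 replicate 4 or D15 replicate 1. The rise of RFC3 was not called with quantile normalization, normexp or the methods' t-test. Nor was it called without D30 + DMSO replicate 1 or D34 ± DMSO replicate 2 or 4. RFC1, the large subunit that binds DNA, gave signals of 569, 522, 552 and 808 at D4, 362, 489, 463 and 573 at D15 and 385, 460.3, 489 and 521 at D30 − DMSO. It was 473, 587, 605 and 717 at D30 + DMSO and 517, 645, 559.8 and 607 at D34 ± DMSO. The D4 and D15 arrays of RFC1 overlapped, and its differences were -0.37 ± 0.17 (SE, adjusted p = 0.138) at D15 and -0.02 ± 0.17 (SE, adjusted p = 0.957) on removal. Those of RFC2 were -0.69 ± 0.19 (SE, adjusted p = 0.0126) and 0.53 ± 0.19 (SE, adjusted p = 0.0553), and neither gene was called.

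The enzymes that finish lagging-strand fragments fell together. FEN1, which trims flaps, gave signals of 393, 526, 396 and 811 at D4, 87.6, 153, 164 and 263 at D15 and 116, 140.5, 134 and 201 at D30 − DMSO. It was 71.4, 88.7, 97.1 and 165 at D30 + DMSO and 264, 541, 334 and 534 at D34 ± DMSO. Every D15 and D30 array of FEN1 lay below all D4 and all D34 ± DMSO arrays, the nearest being 263.0 at D15 and 263.6 at D34 ± DMSO. FEN1 changed by -1.71 ± 0.34 (SE, adjusted p = 0.000902) and 1.99 ± 0.34 (SE, adjusted p = 0.000273). RNASEH2A, the catalytic subunit of the nuclease that removes ribonucleotides, gave signals of 2686, 2126, 2327 and 2892 at D4, 942, 991, 1206 and 1301 at D15 and 1051, 1170.1, 1109 and 1152 at D30 − DMSO. It was 899, 905, 901 and 831 at D30 + DMSO and 2177, 2195, 2637 and 3148 at D34 ± DMSO. D34 ± DMSO replicate 4 was above all D4 arrays. RNASEH2A changed by -1.18 ± 0.14 (SE, adjusted p = 4.78e-06) and 1.51 ± 0.14 (SE, adjusted p = 4.45e-07). LIG1, the ligase that seals the fragments, changed by -1.38 and 1.82.

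Replication protein A, which coats single-stranded DNA in replication and in repair, had 0 of its 3 genes called by limma in any of the 6 comparisons. From D4 to D15, the brightest probe of all 3 had an unadjusted p below 0.05 in limma, as had 7242 of all 22221 genes. The methods' t-test called 0 of the 3. RPA3 signals were 9818, 9066, 7997 and 6323 at D4, 4574, 5150.1, 4555 and 4811 at D15 and 5276, 5153, 5085 and 4244 at D30 − DMSO. It was 5757, 6404, 6792 and 4910.2 at D30 + DMSO and 9154, 8697, 11464 and 8016 at D34 ± DMSO. The D4 and D15 arrays of RPA3 did not overlap, and the difference was -0.78 ± 0.15 (SE, adjusted p = 0.000772), or 58.2% of D4. RPA2 signals were 887, 1068, 1127 and 1169 at D4, 529.5, 853, 903 and 862 at D15 and 663, 715, 775 and 895 at D30 − DMSO. It was 827, 954, 1065 and 959 at D30 + DMSO and 958, 1036, 1182 and 1073 at D34 ± DMSO. D15 replicate 1 was the lowest of the 20 arrays, and D34 ± DMSO overlapped D4. The difference at D15 was -0.46 ± 0.16 (SE, adjusted p = 0.0501) for RPA2 and -0.70 ± 0.18 (SE, adjusted p = 0.00778) for RPA1. Second probes gave smaller differences, -0.38 ± 0.21 (SE, limma adjusted p = 0.225) for RPA2 and -0.20 ± 0.19 (SE, limma adjusted p = 0.522) for RPA1.

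Nucleotide supply held 2 of the 3 largest falls of the 49 genes. RRM2, the small subunit of ribonucleotide reductase that is made in S phase, gave signals of 349, 509.8, 375 and 879.6 at D4, 21.9, 56, 51.7 and 102 at D15 and 47.2, 53.2, 67.5 and 133 at D30 − DMSO. It was 25.3, 77.3, 76.6 and 127 at D30 + DMSO and 415, 733, 455 and 805 at D34 ± DMSO. RRM2 was at most 133 in every D15 and D30 array and at least 349 in every D4 and D34 ± DMSO array. RRM2 changed by -3.29 ± 0.49 (SE, adjusted p = 5.42e-05), the largest fall of the 49, and by 3.13 ± 0.49 (SE, adjusted p = 0.000126) on removal. RRM1, the large subunit, gave signals of 5042, 4229, 5958 and 4149.6 at D4, 1245, 1862, 2014 and 1745 at D15 and 1716, 1735, 1778 and 1818 at D30 − DMSO. It was 1740.3, 1973, 1918 and 1420.2 at D30 + DMSO and 4839, 3919, 5204 and 5469 at D34 ± DMSO. The D4 and D34 ± DMSO ranges of RRM1 overlapped, and the changes were -1.50 ± 0.17 (SE, adjusted p = 1.46e-06) and 1.46 ± 0.17 (SE, adjusted p = 3.47e-06). TK1, the cytosolic thymidine kinase, fell to 12.6% of D4, a change of -2.99 ± 0.26 (SE, adjusted p = 8.69e-08), and rose 8.42-fold on removal. TYMS, which makes thymidylate, fell by 1.63 and rose by 2.36 on the log2 scale.

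RRM2 and TK1 each have a relative that serves cells outside S phase, RRM2B and the mitochondrial kinase TK2. RRM2B signals were 1282, 1128, 1118 and 1252 at D4, 415, 750.0, 757 and 885 at D15 and 739, 788, 686 and 1069 at D30 − DMSO. It was 395, 574, 654 and 612 at D30 + DMSO and 1039, 774, 1006 and 1260 at D34 ± DMSO. The differences of RRM2B had the same signs as the changes of RRM2, at -0.82 ± 0.22 (SE, adjusted p = 0.0106) to D15 and 0.87 ± 0.22 (SE, adjusted p = 0.00795) on removal, and neither was called. TK2 signals were 173, 232, 327 and 166 at D4, 349, 423, 368 and 246 at D15 and 388, 382, 362 and 258 at D30 − DMSO. It was 529.6, 636, 582 and 399 at D30 + DMSO and 324, 200.0, 313 and 219 at D34 ± DMSO. D30 + DMSO was the highest condition of TK2, and TK2 fell by 1.03 on the log2 scale on removal (adjusted p = 0.00385), opposite to TK1. The log2 ratio of RRM2 to RRM2B changed by -2.47 from D4 to D15 and by 2.26 on removal, and that of TK1 to TK2 by -3.65 and 4.11. Each of these 4 changes had an exact permutation p of 0.0286 (two-sided, adjusted p = 0.0458 over 8 ratio tests), the smallest that 4 arrays against 4 allow, with the values of the conditions apart in all arrays. Any ratio fully apart between 2 conditions gives this p, and the permutation took no account of slides. The genes were chosen with earlier results known, so these p-values describe the separation and are no independent evidence. With DMSO addition, the TK1 to TK2 ratio changed by -1.17 (exact permutation p = 0.0286, adjusted 0.0458) while the difference of the RRM2 to RRM2B ratio was 0.50 (exact permutation p = 0.257, adjusted 0.343).

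**Figure D4:**
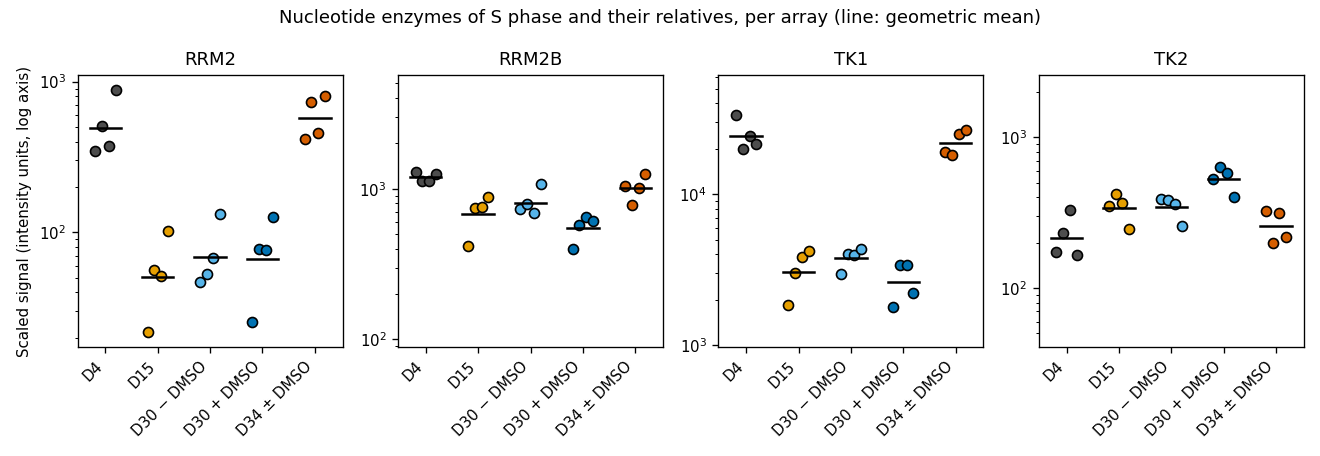
Scaled signal in intensity units (log axes, each spanning the same fold range) of RRM2, RRM2B, TK1 and TK2, 1 point per array and a line at the geometric mean of each condition. RRM2 and TK1 drop after D4 and return at D34 ± DMSO, RRM2B moves less, and TK2 is highest at D30 + DMSO.

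DTL guides the ubiquitin ligase that destroys CDT1 on loaded PCNA, and WDHD1 ties polymerase alpha to the helicase. DTL signals were 399.6, 451, 562 and 524 at D4, 43.6, 80.2, 85.3 and 109.8 at D15 and 53.7, 72.7, 77.2 and 117 at D30 − DMSO. It was 32.9, 37.1, 30.5 and 44.7 at D30 + DMSO and 201, 406, 413 and 331 at D34 ± DMSO. All 4 D30 + DMSO arrays of DTL were below those of D30 − DMSO, and 2 of the 4 D34 ± DMSO arrays reached into the D4 range. DTL changed by -2.67 ± 0.28 (SE, adjusted p = 8.99e-07) and 3.18 ± 0.28 (SE, adjusted p = 2.03e-07). WDHD1 signals were 343, 322, 364 and 334 at D4, 43.7, 69.6, 80.3 and 77.5 at D15 and 51.7, 62.4, 60 and 93.5 at D30 − DMSO. It was 42.9, 46, 54.9 and 57.6 at D30 + DMSO and 129, 259, 225 and 221 at D34 ± DMSO. At D34 ± DMSO, all WDHD1 arrays were below the D4 arrays and above all others. WDHD1 changed by -2.37 ± 0.23 (SE, adjusted p = 2.78e-07) and 2.01 ± 0.23 (SE, adjusted p = 3.47e-06).

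**Figure D5:**
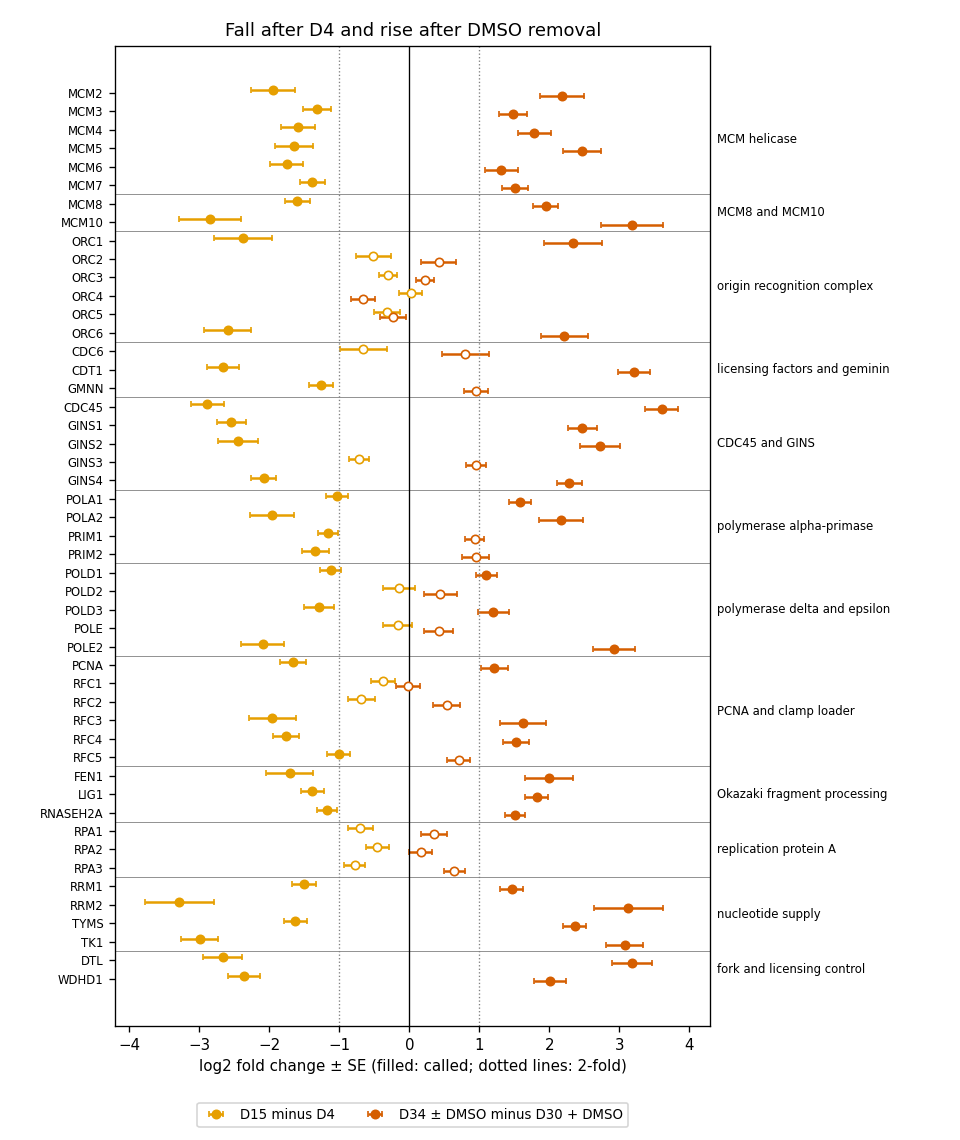
log2 fold change ± SE for each of the 49 genes (rows, by sub-complex) from D4 to D15 and from D30 + DMSO to D34 ± DMSO, with filled points for genes called and dotted lines at 2-fold. The D15 points lie between -3.29 and 0.02 and the removal points between -0.67 and 3.61.

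What DMSO added to the low level at D30 was asked by setting D30 + DMSO against D30 − DMSO. POLE2 fell by 1.35 ± 0.30 (SE, adjusted p = 0.00359) and CDT1 by 1.00 ± 0.23 (SE, adjusted p = 0.00413) on the log2 scale, the first at signals of 32.7, 27.6, 30.8 and 42.5 without and 7.74, 15.7, 16.7 and 13.8 with DMSO. The 2 conditions did not overlap for either gene. DTL at -1.10 ± 0.28 (SE, adjusted p = 0.00962), CDC45 at -0.99 ± 0.24 (SE, adjusted p = 0.00585) and TYMS at -0.78 ± 0.16 (SE, adjusted p = 0.00175) were not called. With slide as a block, DTL at -1.23 (adjusted p = 0.00261) and MCM5 at -1.03 (adjusted p = 0.00129) were called as well, and with the replicate number as a block DTL (adjusted p = 0.000394). Deviations from the condition means correlated with a median r of 0.377 between arrays of the same slide and -0.167 between slides. In all, 36 of the 49 differences were below 0 with a median of -0.22 (all genes 0.04), where 10240 of all 22221 genes were below 0. In limma, 13 genes were lower and 2, ORC4 at 0.47 and RFC5 at 0.40, higher at an unadjusted p below 0.05. These 15 of 49 are a share near that of all genes, of which 6317 of 22221 had such a p in either direction. A second ORC4 probe, above background on all arrays of both conditions, gave 0.09 ± 0.19 (SE, limma adjusted p = 0.831). Of the 49, 11 had all 4 D30 + DMSO arrays below D30 − DMSO and 3 had them above, beside 12.7% and 11.8% of all genes. The median within slides was -0.19 and -0.41. Without D30 − DMSO replicate 3, without D30 − DMSO replicate 4, or without D30 + DMSO replicate 1, 2 or 4, 0 of the 49 genes were called, and neither gene was called in every alternative. Mesenchymal markers, 2 of the 4 tested called lower, moved with DMSO, at a summed signal of 3719 to 8632 at D30 − DMSO and 491 to 893 at D30 + DMSO. Hepatocyte sums were 988210 to 1037900 and 1211700 to 1966200, with 1 of 10 markers called higher. Leukocyte sums were 4356.5 to 5355.9 and 3165.1 to 3823.5, with 0 of 4 called. Biliary and endothelial sums overlapped, with 1 of 5 biliary markers called lower and 1 higher. The part of these lists in the result was not tested.

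Between D15 and D30 − DMSO, without DMSO in either, the log2 differences of the 49 genes ran from -0.42 (ORC3) to 0.45 (RRM2), with a median of -0.04. For 46 of the 49, the 95% interval of the change lay within 2-fold. Within slides, the median was 0.41, -0.30 and 0.04.

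From D30 + DMSO to D34 ± DMSO, 32 of the 36 genes that had fallen from D4 to D15 rose, and 0 of the other 13. The 2 comparisons share no array but come from 1 fit, which gives each gene the same SE in both. Calls in the 2 are therefore not independent. The largest fitted rises were those of CDC45, CDT1, MCM10, DTL and RRM2, at 3.61, 3.20, 3.18, 3.18 and 3.13, of which that of MCM10 is known only as the bound given above. The 4 that fell and were not called on removal were GMNN, PRIM1, PRIM2 and RFC5, at 0.95, 0.93, 0.95 and 0.71, all above 0. Of the 49, 40 had all D34 ± DMSO arrays above all D30 + DMSO arrays, beside 11.7% of all genes, and ORC4 had them below. The replication genes also stood above the culture that never had DMSO, sampled at day 30. Against D30 − DMSO, 31 rose, with a median of 1.25 (all genes -0.02), led by RRM2 at 3.07 ± 0.49 (SE, adjusted p = 0.000654), CDC45 at 2.62 ± 0.24 (SE, adjusted p = 1.50e-06) and TK1 at 2.53 ± 0.26 (SE, adjusted p = 5.17e-06). Without D34 ± DMSO replicate 3, 19 of these 31 genes were called, in a fit of the 8 compared arrays 11, and by the methods' t-test 0. Mesenchymal markers again moved with removal (2 of the 4 tested higher, summed signal 3419 to 8380 at D34 ± DMSO). Hepatocyte sums were 1211700 to 1966200 at D30 + DMSO and 929150 to 1178400 at D34 ± DMSO, with 1 of 10 markers called lower. Sums of the other 3 lists overlapped, with 1 of 5 biliary markers called lower and 1 higher. The part of these lists in the rise was not tested.

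How near the genes were to D4 after removal was read from D34 ± DMSO against D4. By limma, 0 of the 49 were called, and 7 had an unadjusted p below 0.05, all lower at D34 ± DMSO. Of all 22221 genes, 7597 had such a p in either direction. The methods' t-test called 0 of the 49 and 716 of all genes. The 7 were MCM3, MCM4, MCM6, ORC3, ORC6, PCNA and WDHD1, of which PCNA at -0.65 ± 0.19 (SE, adjusted p = 0.0176) and WDHD1 at -0.75 ± 0.23 (SE, adjusted p = 0.0204) had adjusted p-values below 0.05, with ORC3 at -0.39 ± 0.13 (SE, adjusted p = 0.0303). The median difference was -0.27 (all genes -0.01), and 35 of the 49 genes had a 95% interval within 2-fold, while the intervals of the rest reached beyond 2-fold. By sub-complex, the median percent of D4 at D34 ± DMSO was lowest for DTL and WDHD1, at 63.5%. It was 69.5% for the MCM ring, 73.7% for the origin recognition complex, 77.8% for MCM8 and MCM10, 82.6% for the licensing factors and geminin, 90.8% for CDC45 and GINS, 87.4% for polymerase alpha and primase, 90.5% for polymerases delta and epsilon, 87.2% for PCNA and its loader, 95.3% for nucleotide supply, 100% for replication protein A and 101% for lagging-strand processing.

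Other genes of the fork and the regulators of S phase entry were counted for reference. Of 40 other fork genes tested, 19 fell from D4 to D15 and 16 rose on removal, with medians of -1.22 and 1.01, among them UHRF1, which links replication to maintenance methylation, at -3.55 and 4.14, and the topoisomerase TOP2A at -2.99 and 3.85. TICRR and ATAD5 also had fitted differences of this size but were above background on 0 of the D15 and D30 arrays, so no fold is given for them. Of 27 S phase entry regulators, 13 fell and 11 rose, with medians of -0.98 and 0.62. Within that list, the largest fitted changes were those of E2F8, a repressor of the E2F family, at -3.42 and 4.08, with 1 of 4 arrays above background at D15 and at D30 + DMSO. E2F1 changed by -3.21 ± 0.31 (SE, adjusted p = 2.79e-07) to D15 and 2.99 ± 0.31 (SE, adjusted p = 1.21e-06) on removal, E2F7 by -3.07 and 3.40, and E2F2 was the 1 gene called lower with DMSO addition, at -1.79 ± 0.34 (SE, adjusted p = 0.000972). Of 19 other polymerases, ligases and nucleotide enzymes, among them translesion polymerases, limma called 0 from D4 to D15, with a median of 0.05. At an unadjusted p below 0.05 in limma were 6 of the 19, beside 7242 of all 22221 genes, and the methods' t-test called 0 of the 19. On removal POLH, a translesion polymerase, rose by 1.67 and TK2 fell. The lists are described by counts and medians and were not tested as sets.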

How the data were processed

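RNA from 5 conditions of HepaRG cells, 4 arrays each, was hybridised to one-color Agilent arrays. The authors deposited scanner tables, from which the processed signals were taken as intensity values, background-subtracted and detrended within each array by Feature Extraction (10.7.1.1 per the file headers) and not scaled between arrays. The authors also deposited a table of log2 values, shifted to the 75th percentile per array in GeneSpring, with a centring per probe that is unknown here; differences between arrays in it matched those computed from the scanner tables (median absolute difference 4.39e-07 over 21741 probes), and its column medians were -0.204 to 0.171.

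Control spots were dropped, and outlier spots where another spot of the probe remained. Signals were divided by the 75th percentile of the array (283 to 530), floored at 1 and log2-transformed. Of 42405 probes, 24826 had a gene symbol, and 26538 of the 42405 passed the scanner's background flag in every array of 1 or more conditions. Probes without a symbol were kept under their transcript identifier and count as genes in the total of genes tested. Each gene took its brightest probe by mean log2 value, which gave 22221 genes. Of the 49 members, 11 had several probes, whose calls matched in 9 of 11 genes at D15 against D4 and at D34 ± DMSO against D30 − DMSO and in 11 of 11 in the other comparisons. No member value was saturated (0 values). A gene below background on all arrays of a condition was given a bound.

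All 20 arrays were fitted in limma 3.58.1 (R 4.3.3) with 5 condition means. Calls needed more than 2-fold at an adjusted p below 0.005, the thresholds of the study's t-test for DMSO addition and removal, used here for every comparison. On simulated data with 22221 genes, in which 200 were changed 4-fold between D4 and D15, 82% of these were recovered and 0 others were called. The number of false calls when arrays correlate within slides was not tested. Ratios of relatives were tested by exact permutation.

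The members and lists were chosen with earlier results of these data known. Values on every array were printed by rule: for MCM7, the members with the largest and smallest change from D4 to D15 in each sub-complex, the 5 largest rises on removal, members called with DMSO addition, and RRM2B and TK2. From the other lists, genes were named only from the 4 with the largest change of each list in a comparison, not all of which are named, and without a fold where a condition was below background on all arrays. Alternatives were quantile normalization, normexp (offset 50), the authors' log2 values, 2 filters on dim probes, a floor of 10, the mean over probes, slide or replicate number as a block, fits of 8 arrays, the methods' t-test, an adjusted p below 0.05, no fold limit, and leaving out each array.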

Additional observations from a re-analysis of the deposited data

Results flagged for a closer look

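Within conditions of 4 arrays, 130 sets of values were checked for an array that stood apart, and 7 were marked, where chance alone marks about 1 in 20. Values are log2 signals relative to the 75th percentile of the array. In D30 − DMSO replicate 4, MCM10 was at -4.188 (other arrays -5.867 to -5.785), ORC6 at -2.783 (-3.801 to -3.685), POLA2 at -1.815 (-3.019 to -2.948) and POLD2 at 2.187 (1.454 to 1.532), all above the other arrays of the condition. RPA3 was below them in the same array, at 3.515 (3.776 to 3.829). RNASEH2A was low in D30 + DMSO replicate 4, at 1.162 (1.275 to 1.286), and RPA2 in D15 replicate 1, at 0.5122 (1.199 to 1.283).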

How the results depend on the processing

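No member that was called changed direction under any alternative run. The absence of calls from D15 to D30 − DMSO and from D4 to D34 ± DMSO (0 of 49) held in each of 13 alternatives and each omission of an array. From D4 to D15, 36 genes were called, 19 by the methods' t-test and 34 to 36 with an array left out. On DMSO removal, 32 were called, 17 by the t-test and 30 to 36 with an array left out. Against D30 − DMSO, 31 were called at D34 ± DMSO, 11 in a fit of the 8 compared arrays, 0 by the t-test and 19 to 33 with an array left out, the 19 without D34 ± DMSO replicate 3. For DMSO addition, 2 were called, 0 under quantile normalization, normexp, no filter, the 8-array fit or the t-test, 1 of 44 members tested with probes above background on all arrays, 4 with slide as a block, and 0 to 1 with an array left out. That count was 1 without D30 − DMSO replicate 1 or 2 or D30 + DMSO replicate 3, and 0 without any other array of the 2 conditions. The cause was not tested. Called in every alternative were 17 of 36 genes, 16 of 32, 0 of 31 and 0 of 2, in that order. Arrays with the same replicate number correlated in their deviations from the condition means with r from -0.309 to 0.794 (median 0.256 over 40 pairs). The median was -0.157 for pairs with different numbers and 0.0649 for pairs with the same number on different slides. The main fit did not take the numbers as a pairing. With the replicate number as a block, 36, 0, 3, 32, 35 and 0 genes were called, in the order D15 against D4, D30 − DMSO against D15, D30 + DMSO against D30 − DMSO, D34 ± DMSO against D30 + DMSO, against D30 − DMSO and against D4. The median difference from D15 to D30 − DMSO was -0.04 over all arrays and 0.41 within slide 2. At D30 + DMSO, MCM10 was above background on 0 of 4 arrays, ORC1 and POLE2 on 1 and CDC6 on 2, which limits their folds.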
